A study of Mus musculus with 9 samples.

Results

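This report describes the mRNA levels of 10 genes of the NRF2 pathway and of the cell's peroxide defence in mouse plasma cells: Nfe2l2, Nqo1, Gclc, Gclm, Gsr, Txnrd1, Srxn1, Prdx1, Prdx4 and Gpx4. They were chosen by symbol, as genes known for these functions, from the 46958 genes of the deposited count table, and all 10 passed the filter on low counts. The study took CD138+ cells, the fraction that holds plasma cells, from the spleens of 3-month-old mice that had received no immunization, on a mixed C57/BL6x129/SVxBALB/c background. The genotypes are labelled WT, DH-LMP2A and kFRA (LCDD), with 3 mice each and 1 library of polyadenylated RNA per spleen. LCDD is light chain deposition disease, and the series asks what a free immunoglobulin light chain of that disease does to the plasma cells that carry it. The labels name no further alleles, promoters or treatments for any genotype, and the design text gives the magnetically selected cells a purity above 80%, so each library may hold other spleen cells too.

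NRF2, the protein made from Nfe2l2, is a transcription factor that KEAP1 marks for degradation and that oxidants release, so much of its control acts on the protein and not on its mRNA. With small MAF proteins it binds antioxidant response elements near genes for glutathione synthesis, thiol reduction and quinone reduction. Plasma cells fold large amounts of disulfide-bonded immunoglobulin, and the oxidases that form disulfides in the endoplasmic reticulum (ER) release hydrogen peroxide, which PRDX4 consumes there.

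The core of the antioxidant response element was searched for as TGACNNNGC on both strands in RefSeq promoters of mouse build GRCm38.p6, each reaching from 250 bases before to 50 bases after a transcript start. Of the 10 genes, 8 had an entry (13 promoters), and Gclc and Gsr had none. A match was present in promoters of Nfe2l2, Gclm, Txnrd1, Srxn1 and Prdx1, that is in 5 of 13 promoters (38.5%), against 12.4% of all 32851 promoters of that length. The 5 matches are shown so that the letters matched can be read, and nothing in these data ties them to a bound element. The core stands in capitals with 10 bases on either side, the coordinates are those of the whole stretch, the distance is that of the core, and in the 4 genes other than Nfe2l2 it reads on the opposite strand (GCNNNGTCA).
Nfe2l2, chr2:75704885-75704913, minus strand, core from 240 bases before the start: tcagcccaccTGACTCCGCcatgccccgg
Gclm, chr3:122245413-122245441, plus strand, core from 134 bases before the start: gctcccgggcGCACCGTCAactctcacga
Txnrd1, chr10:82859104-82859132, plus strand, core from 92 bases before the start: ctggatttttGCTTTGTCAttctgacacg
Srxn1, chr2:152105542-152105570, plus strand, core from 28 bases after the start: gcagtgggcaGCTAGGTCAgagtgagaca
Prdx1, chr4:116685456-116685484, plus strand, core from 133 bases before the start: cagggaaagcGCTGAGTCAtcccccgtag
The core was not among the letters of the windows of Nqo1, Prdx4 and Gpx4. For Prdx4 the listed start lies inside the gene as the count table has it, so the bases before the gene's outer start were not searched. 2 elements of the ER stress response, the bipartite ER stress response element and the core TGACGTGG of the unfolded protein response element, were in 0 of the 13 promoters, and in 0.119% and 0.676% of all promoters. A match is a stretch of letters and not evidence of binding.

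Total counts ranged from 15449026 to 21558128 per library. Levels are given as CPM, the counts of a gene over the library's total on a common scale, after correction by edgeR's TMM factors, which set libraries level on the bulk of their genes, and differences are log2 fold changes with their standard error (SE) from edgeR's quasi-likelihood test, adjusted by Benjamini-Hochberg over 14199 genes. At 0.05 the test called 713 genes between kFRA and DH-LMP2A (5.02% of those tested), 2523 between kFRA and WT (17.8%) and 1756 between DH-LMP2A and WT (12.4%). The share of calls that were higher in the genotype named first was 34.4%, 37.6% and 41.0%, and 26.0%, 72.0% and 79.9% when libraries were scaled by their size alone, which moved the median gene by -0.13, 0.21 and 0.34 on the log2 scale. The 3 comparisons share libraries and are not independent. Summed CPM of 8 plasma cell markers was 18890 to 24141 in WT, 20401 to 32064 in kFRA and 34147 to 47160 in DH-LMP2A. Most of this sum was Jchain, with means of 17825, 21118 and 30965 CPM. Of the 8 markers, 2 were called higher than WT in kFRA (Mzb1 and Slamf7) and 3 in DH-LMP2A (Mzb1, Slamf7 and Prdm1). The median log2 difference of the 8 from WT was 0.38 in kFRA and 0.66 in DH-LMP2A. Tnfrsf17 was called lower than WT in both, at -1.69 (edgeR adjusted p = 0.00253) and -1.16 (edgeR adjusted p = 0.0159). No list of markers of other cells (8 each for B, T and NK, macrophage and monocyte, granulocyte and erythroid cells) had a marker at 0 in all 9 libraries, and levels of markers that moved with a result stand beside it. 2 libraries differed from the others of their genotype in several of the 10 genes, kFRA replicate 2 and DH-LMP2A replicate 3. Some results, not all, are given with and without them. Over all genes the WT libraries also differed from each other, with a chi-square per degree of freedom of 109, 164 and 108 for their pairs. Pairs with DH-LMP2A replicate 3 stood at 59.9 and 61.0, and pairs with kFRA replicate 2 at 95.7 and 137.7. In bulk RNA a lower share of the cells that express a gene and less of its RNA per cell cannot be told apart.

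In the kFRA libraries Gsr was 2.96-fold lower than in WT and Gpx4 1.96-fold higher, and in the DH-LMP2A libraries Prdx4 was 1.73-fold higher than in WT. These were the only calls among the 10 genes in the 3 comparisons: 2 of 10 for kFRA against WT beside 17.8% of all genes, 1 of 10 for DH-LMP2A against WT beside 12.4%, and 0 of 10 for kFRA against DH-LMP2A beside 5.02%. The count of calls among these genes was therefore near that of the table as a whole. At an unadjusted p under 0.05, 2 of the 10 genes passed between kFRA and DH-LMP2A (Nqo1 and Gpx4) against 3183 of all 14199, 6 passed between kFRA and WT (Nfe2l2, Gsr, Txnrd1, Srxn1, Prdx4 and Gpx4) against 4964, and 3 between DH-LMP2A and WT (Gsr, Srxn1 and Prdx4) against 3778. DESeq2's Wald test called 1 between kFRA and DH-LMP2A (Gpx4) beside 9.9% of all genes, 3 between kFRA and WT (Gsr, Gpx4 and Prdx4, beside 24.8%) and 2 between DH-LMP2A and WT (Gsr and Prdx4, beside 17.8%).

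**Figure D1:**
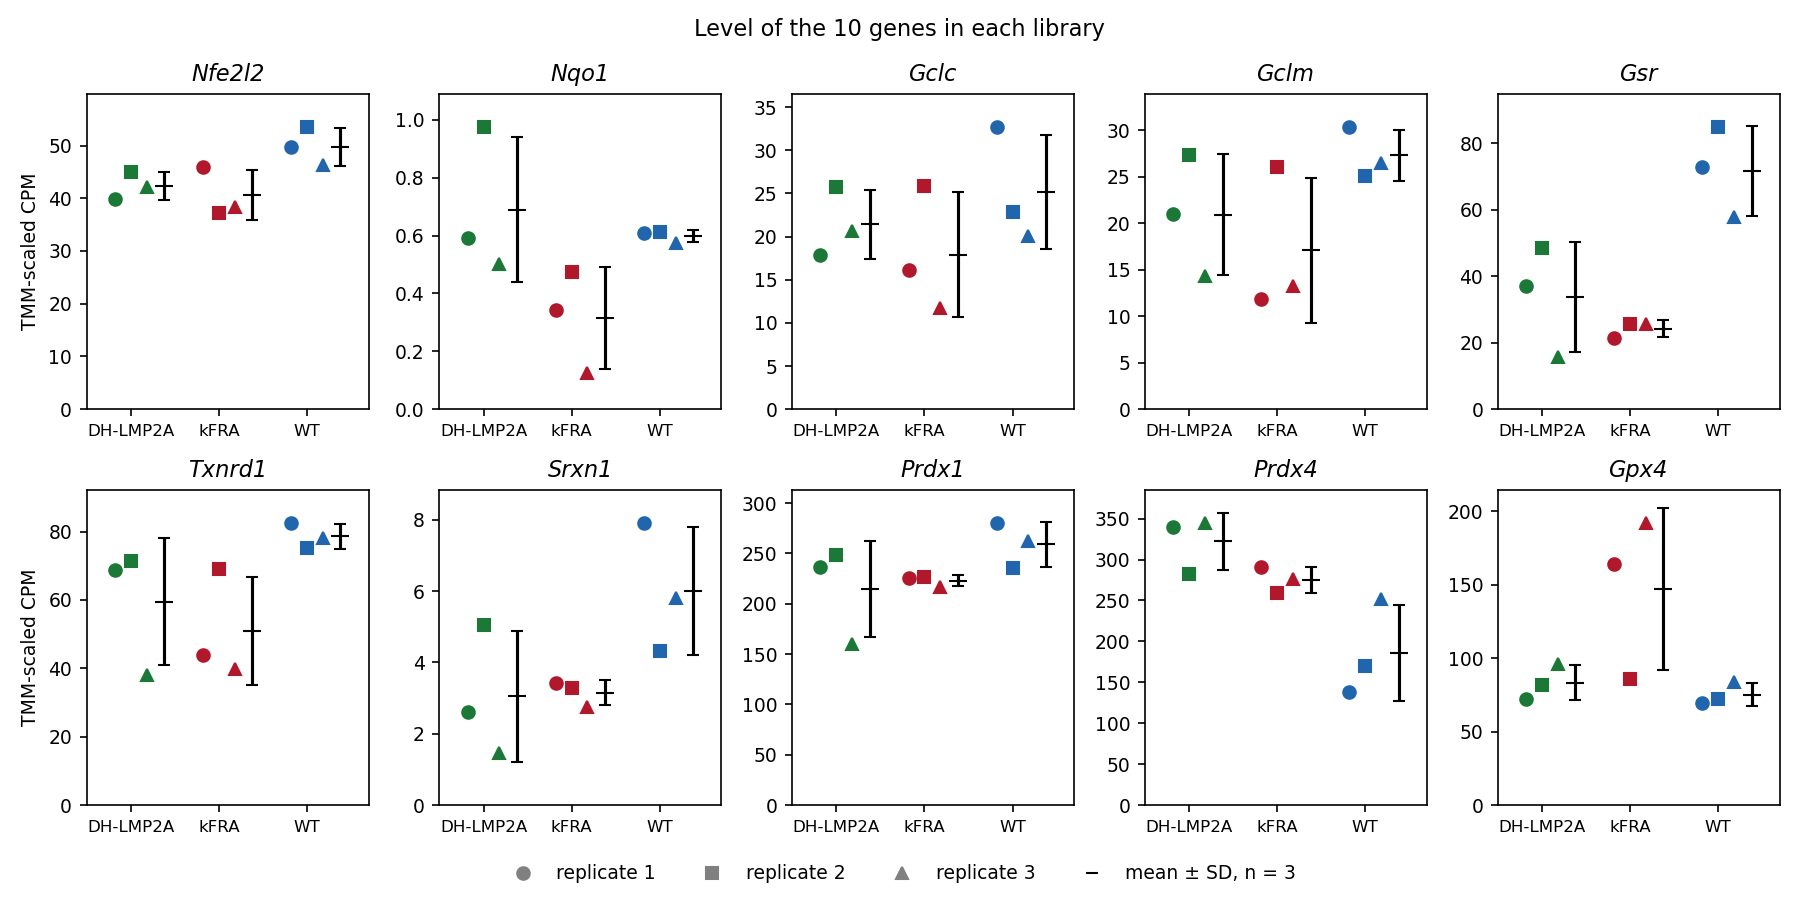
TMM-scaled CPM (y axes, each from 0) of the 10 genes in the 9 libraries, by genotype (x axes). Circles, squares and triangles are replicates 1, 2 and 3, and black bars the mean ± SD (n = 3). Gsr was lower in every kFRA and DH-LMP2A library than in every WT library, Prdx4 was higher, and Gpx4 was high in kFRA replicates 1 and 3 only.

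Nfe2l2 (chr2:75675513-75704641, minus strand, GRCm38 as in the count table) stood at 49.63, 53.45 and 46.24 CPM in WT, 39.77, 45.05 and 42.10 CPM in DH-LMP2A and 45.96, 37.25 and 38.39 CPM in kFRA. Each WT library lay above each library of the other genotypes, by a small margin over the highest kFRA value. The difference did not pass the test: -0.30 (SE 0.125, edgeR adjusted p = 0.125) for kFRA against WT, and -0.23 (SE 0.125, edgeR adjusted p = 0.274) for DH-LMP2A against WT. Scaled by library size alone, the latter was 0.10.

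Nqo1 (chr8:107388225-107403206, minus strand) encodes a quinone reductase that is often used as a readout of NRF2. It was the lowest of the 10 genes per kilobase of exon in every genotype, with mean CPM per kilobase of 0.202 (kFRA), 0.444 (DH-LMP2A) and 0.385 (WT). The libraries held 12, 12 and 9 counts in WT, 14, 21 and 11 in DH-LMP2A and 5, 10 and 2 in kFRA, where 3 counts are taken as the floor of detection. In CPM, WT stood at 0.608, 0.612 and 0.573, DH-LMP2A at 0.592, 0.974 and 0.503, and kFRA at 0.342, 0.476 and 0.126. All 3 kFRA libraries were below all others, and at these counts the test could not separate them. The log2 difference was -1.08 (SE 0.471, edgeR adjusted p = 0.217) from DH-LMP2A and -0.88 (SE 0.484, edgeR adjusted p = 0.222) from WT.

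Gclc and Gclm encode the catalytic and the modifier subunit of glutamate-cysteine ligase, the enzyme of the limiting step in glutathione synthesis. Gclc (chr9:77754535-77794485, plus strand) stood at 32.67, 22.85 and 20.13 CPM in WT, 17.90, 25.80 and 20.59 in DH-LMP2A and 16.14, 25.88 and 11.73 in kFRA. Gclm (chr3:122245557-122270732, plus strand) stood at 30.34, 25.09 and 26.49 CPM in WT, 21.03, 27.37 and 14.37 in DH-LMP2A and 11.90, 26.07 and 13.30 in kFRA. For both genes kFRA replicate 2 lay within the WT range while kFRA replicates 1 and 3 lay below it, and replicate 2 was 1.86-fold (Gclc) and 2.07-fold (Gclm) above the mean of the other two. With all libraries neither gene passed between kFRA and WT, at -0.49 (SE 0.295, edgeR adjusted p = 0.260) for Gclc and -0.67 (SE 0.315, edgeR adjusted p = 0.163) for Gclm. Without kFRA replicate 2 both did, at -0.79 (edgeR adjusted p = 0.0365) and -1.05 (edgeR adjusted p = 0.0148), in a fit that called 38.8% of all genes. Of Gclm's exon bases 4.71% overlap Gm6061 or Gm17494, and since the strand setting of the counting is not given in the sources used here, its value is uncertain to that extent.

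Gsr (chr8:33652523-33698163, plus strand) encodes glutathione reductase, which returns oxidized glutathione to its reduced form with NADPH. It stood at 72.73, 84.72 and 57.70 CPM in WT, 37.15, 48.39 and 15.79 in DH-LMP2A and 21.27, 25.64 and 25.72 in kFRA. The kFRA libraries were close to each other and all below the lowest WT library. Gsr fell by 1.57 on the log2 scale in kFRA against WT (SE 0.345, edgeR adjusted p = 0.0148). The DH-LMP2A libraries were also all below WT, with a difference of -1.09 that missed the threshold (SE 0.339, edgeR adjusted p = 0.0695), and kFRA differed from DH-LMP2A by -0.48 (SE 0.339, edgeR adjusted p = 0.423). Without DH-LMP2A replicate 3, the lowest of the 9, DH-LMP2A lay at -0.74 from WT (edgeR adjusted p = 0.0514). It passed without DH-LMP2A replicate 2, at -1.42 (edgeR adjusted p = 0.0352), and with no filter on low counts, at -1.07 (edgeR adjusted p = 0.0366). The kFRA call was lost without kFRA replicate 1 (-1.48, edgeR adjusted p = 0.0638) and without WT replicate 2 (-1.43, edgeR adjusted p = 0.0551).

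Markers of other cells moved with Gsr in part. The summed CPM of macrophage and monocyte markers was 6261, 5031 and 3695 in WT replicates 1 to 3, 3051, 3768 and 1244 in DH-LMP2A and 2549, 3944 and 2564 in kFRA, and 0 of the 8 markers passed the test in any of the 3 comparisons. With the mean log2 CPM of these markers as a covariate Gsr differed between kFRA and WT by -1.06 (SE 0.201, edgeR adjusted p = 0.00863), and between DH-LMP2A and WT by -0.49 (SE 0.216, edgeR adjusted p = 0.233). Erythroid markers went the other way, with a summed CPM of 49.7 to 333 in WT, 1094 to 2584 in kFRA and 2426 to 12852 in DH-LMP2A, and 4 of 8 were called higher than WT in each. With the erythroid mean as a covariate the kFRA difference in Gsr was -0.89 (SE 0.516, edgeR adjusted p = 0.390), a fit in which 741 genes were called in place of 2523. Granulocyte markers had a summed CPM of 255, 821 and 318 in WT, 209, 257 and 20.1 in DH-LMP2A and 6.84, 9.23 and 25.4 in kFRA, so that each kFRA library, replicate 2 included, lay below each WT library. Of the 6 granulocyte markers tested, S100a8 (-6.01, edgeR adjusted p = 0.00398) and S100a9 (-5.55, edgeR adjusted p = 0.00676) fell in kFRA against WT, with a median of -2.88 over the 6. In DH-LMP2A against WT none fell, with S100a8 at -1.91 (edgeR adjusted p = 0.162), and Mpo rose by 2.05 (edgeR adjusted p = 0.0311). A covariate of all markers of other spleen cells, granulocyte markers among them, gave Gsr at -1.43 in kFRA against WT (edgeR adjusted p = 0.116). The part of granulocyte markers alone was not tested.

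**Figure D2:**
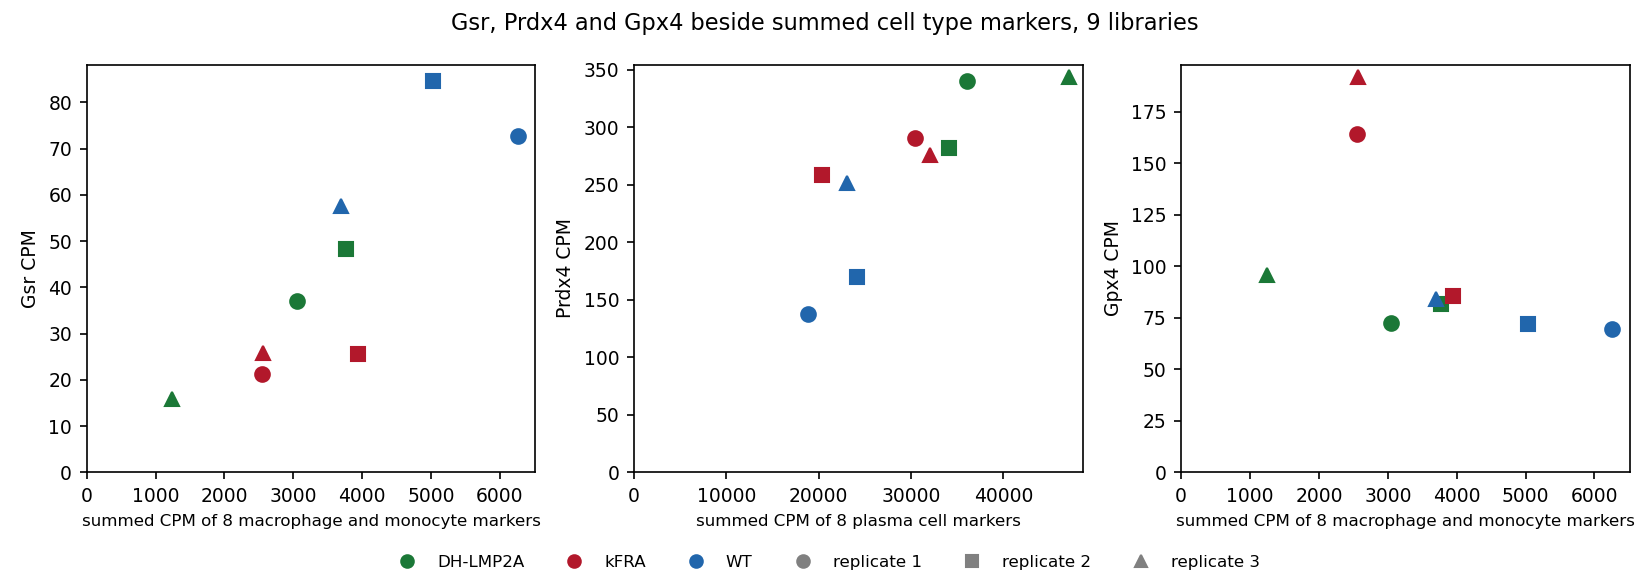
CPM of Gsr and Gpx4 against the summed CPM of 8 macrophage and monocyte markers, and CPM of Prdx4 against that of 8 plasma cell markers, in the 9 libraries (colours: genotypes, symbols: replicates, axes from 0). DH-LMP2A replicate 3 had the lowest macrophage sum (1244) and the lowest Gsr (15.79), while kFRA replicate 2 had a macrophage sum of 3944 with Gsr at 25.64.

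Txnrd1 and Srxn1 encode enzymes that keep peroxiredoxins working: thioredoxin reductase 1, which reduces cytosolic thioredoxin, and sulfiredoxin, which restores over-oxidized peroxiredoxins. Txnrd1 (chr10:82859206-82897724, plus strand) stood at 82.40, 75.18 and 78.08 CPM in WT, 68.84, 71.40 and 38.03 in DH-LMP2A and 43.91, 69.12 and 39.83 in kFRA. All WT libraries lay above the others, and the low values were those of DH-LMP2A replicate 3 and of kFRA replicates 1 and 3. Between kFRA and WT the difference was -0.62 (SE 0.267, edgeR adjusted p = 0.130), and -0.84 (edgeR adjusted p = 0.0307) without kFRA replicate 2. Between DH-LMP2A and WT it was -0.40 (edgeR adjusted p = 0.389).

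Srxn1 (chr2:152105516-152111376, plus strand) stood at 7.90, 4.34 and 5.80 CPM in WT, 2.62, 5.06 and 1.46 in DH-LMP2A and 3.42, 3.28 and 2.76 in kFRA. All kFRA libraries were below WT, whereas DH-LMP2A replicate 2 lay inside the WT range. Neither difference passed: -0.93 (SE 0.412, edgeR adjusted p = 0.142) for kFRA and -0.98 (SE 0.409, edgeR adjusted p = 0.162) for DH-LMP2A. Without DH-LMP2A replicate 2 the latter was -1.54 (edgeR adjusted p = 0.0337), in a fit that called 9.37% of all genes. This was the only such call of Srxn1 in DH-LMP2A against WT: 1 of 6 fits that left out 1 library, and 0 of 12 other settings.

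**Figure D3:**
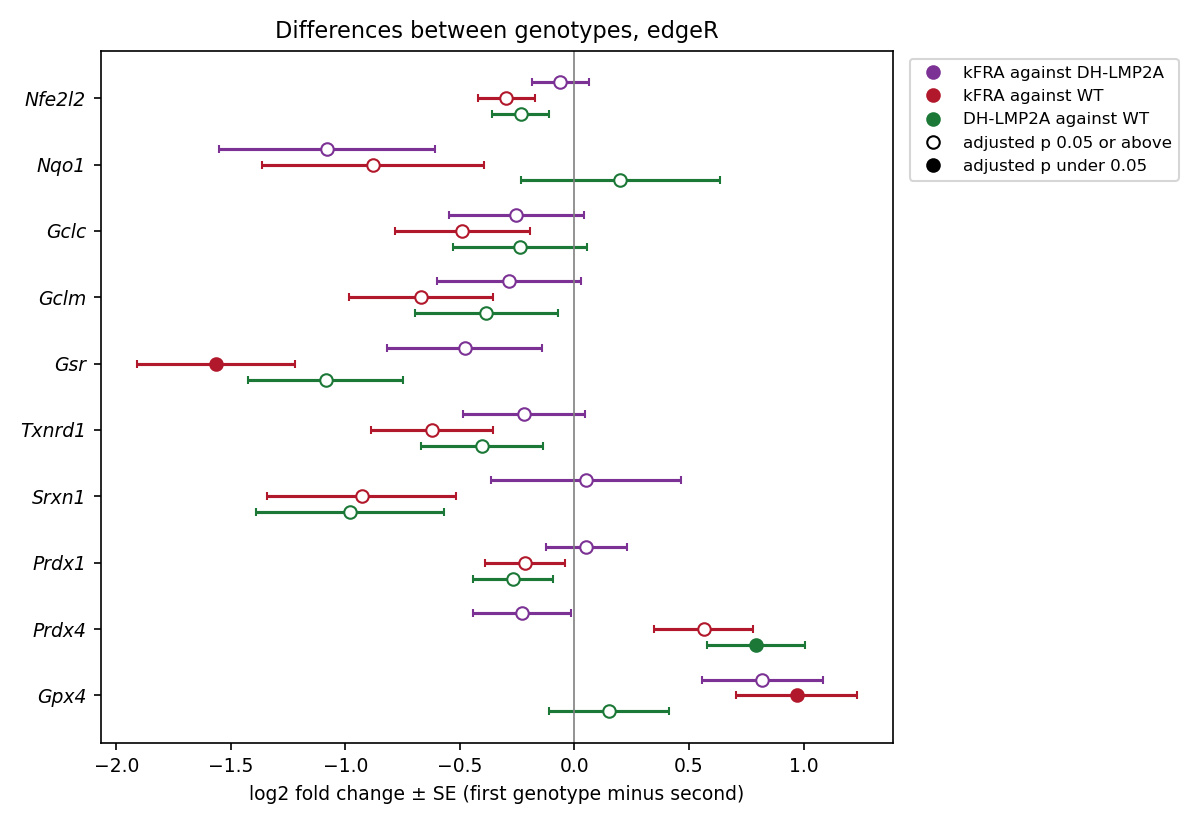
Log2 fold change ± SE (x axis) of the 10 genes (y axis) in the 3 comparisons (colours), from edgeR's quasi-likelihood test on all 9 libraries. Filled points passed an adjusted p of 0.05: Gsr at -1.57 and Gpx4 at 0.97 in kFRA against WT, and Prdx4 at 0.79 in DH-LMP2A against WT.

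Among the peroxidases, Prdx1 (chr4:116685544-116700822, plus strand), a peroxiredoxin of the cytosol, passed in no comparison. It stood at 279.93, 235.09 and 262.33 CPM in WT, 236.05, 248.77 and 160.44 in DH-LMP2A and 225.98, 226.35 and 216.66 in kFRA. The kFRA libraries were all below WT by a narrow margin, and the lowest value was that of DH-LMP2A replicate 3. The differences were -0.22 (SE 0.176, edgeR adjusted p = 0.397) for kFRA and -0.27 (SE 0.176, edgeR adjusted p = 0.385) for DH-LMP2A against WT, the latter 0.08 when scaled by library size alone. Near-identical copies, Gm21399 and Gm7204, held 612 counts in all, 1.52% of those of Prdx1.

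Prdx4 (chrX:155323918-155340754, minus strand), the peroxiredoxin of the ER, went the opposite way. It stood at 137.61, 169.49 and 251.31 CPM in WT, 340.09, 282.03 and 344.23 in DH-LMP2A and 290.41, 258.61 and 276.06 in kFRA. Both other genotypes lay above all WT libraries, of which replicate 3 came close to the kFRA range. Prdx4 rose by 0.79 in DH-LMP2A against WT (SE 0.215, edgeR adjusted p = 0.0418). In kFRA the difference from WT was 0.56 and missed the threshold (SE 0.214, edgeR adjusted p = 0.0966). Between kFRA and DH-LMP2A it was -0.23 (SE 0.214, edgeR adjusted p = 0.551). Without WT replicate 3 both differences from WT passed, at 1.07 (edgeR adjusted p = 0.00629) and 0.84 (edgeR adjusted p = 0.0143), beside 9.7% and 14.4% of all genes called. The DH-LMP2A call was lost when any other library of these genotypes was left out, at adjusted p from 0.0659 to 0.146 in edgeR, and with each of the 4 covariates. The left-out fits that lost it gave 0.61 to 0.88. The covariates gave 0.26 with erythroid markers (edgeR adjusted p = 0.919), 0.55 with macrophage markers (edgeR adjusted p = 0.193), 0.82 with all markers of other spleen cells (edgeR adjusted p = 0.105) and 0.79 with Xist (edgeR adjusted p = 0.0505). It was also lost in a fit of only the 6 libraries compared (0.79, edgeR adjusted p = 0.0681). The summed plasma cell markers, mostly Jchain, were also highest in DH-LMP2A, as given above, and their part in the result was not tested.

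Gpx4 (chr10:80047166-80056439, plus strand) encodes the glutathione peroxidase that reduces lipid peroxides in membranes. It stood at 69.49, 72.02 and 83.88 CPM in WT, 72.44, 81.89 and 95.78 in DH-LMP2A and 164.36, 85.54 and 191.75 in kFRA. kFRA replicates 1 and 3 were far above every other library, while replicate 2 was just above the highest WT library and inside the DH-LMP2A range. Gpx4 rose by 0.97 in kFRA against WT (SE 0.264, edgeR adjusted p = 0.0340), and by 1.31 (edgeR adjusted p = 0.00102) without replicate 2. The difference from DH-LMP2A was 0.82 with all libraries (SE 0.263, edgeR adjusted p = 0.116), and 1.16 (edgeR adjusted p = 0.00319) without kFRA replicate 2, in a fit that called 22.7% of all genes. Leaving out any other library of kFRA or WT ended the call against WT, at adjusted p from 0.0569 to 0.113 in edgeR. So did the covariates of macrophage markers (0.69, edgeR adjusted p = 0.108), erythroid markers (0.93, edgeR adjusted p = 0.267) and other spleen cells (0.97, edgeR adjusted p = 0.148). Its copies Gpx4-ps2 (99.7% identical over 733 bases) and AC122253.3 (95.1% over 510 bases) are not among the symbols of the count table. Reads of Gpx4 and of these copies may therefore not be separable.

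The split of the kFRA libraries in Gpx4, Gclm, Gclc and Txnrd1 ran along other measures of the same mice. Xist was at 733.6 CPM in kFRA replicate 2 and at 1.30 and 3.14 in replicates 1 and 3, and Mki67, a marker of cycling cells, was at 433.4 CPM in replicate 2 and at 115.3 and 122.4 in the others. DH-LMP2A replicate 3 also stood apart in Xist, at 4.48 CPM beside 923.6 and 882.0 in replicates 1 and 2. Its Mki67 was at 312.7 CPM beside 469.4 and 447.0. The WT replicates had Xist at 783.1, 0.459 and 494.7 CPM, so each genotype held libraries of high and of low Xist. Among the 5 libraries with Xist above 100 CPM, which of the kFRA libraries include replicate 2 only, the log2 ratio of Gpx4 means between kFRA and WT was 0.16, and among the 4 libraries below it was 1.31. For Gsr these ratios were -1.35 and -1.85, and for Prdx4 between DH-LMP2A and WT 0.68 and 1.02. These ratios rest on 1 or 2 libraries per genotype on each side and were not tested. With Xist as a covariate in all 9 libraries, Gpx4 in kFRA against WT was at 0.82 (edgeR adjusted p = 0.0586), Gsr at -1.54 (edgeR adjusted p = 0.0206), and Prdx4 in DH-LMP2A against WT at 0.79 (edgeR adjusted p = 0.0505). The part of Mki67 in these results was not tested.

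Without both kFRA replicate 2 and DH-LMP2A replicate 3, an alternative chosen after seeing the data, 4 of the 10 genes passed between kFRA and DH-LMP2A beside 19.5% of all genes. Gpx4 was higher in kFRA, at 1.26 (edgeR adjusted p = 0.00385). Gclm at -0.88 (edgeR adjusted p = 0.0167), Gsr at -0.80 (edgeR adjusted p = 0.0344) and Txnrd1 at -0.69 (edgeR adjusted p = 0.0120) were lower. The kFRA libraries left had Xist at 1.30 and 3.14 CPM, and the DH-LMP2A libraries left at 923.6 and 882.0. Mki67 was at 115.3 and 122.4 CPM in the former and 469.4 and 447.0 in the latter. In this comparison genotype therefore cannot be told apart from Xist status or Mki67 level. Between kFRA and WT 5 of 10 then passed beside 40.8% of all genes, namely Gpx4 upward and Gsr, Gclm, Txnrd1 and Gclc downward. Between DH-LMP2A and WT it was Gsr alone, at -0.74 (edgeR adjusted p = 0.0403), beside 13.1% of all genes.

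Libraries of the compared genotypes did not overlap for 8 of 10 genes between kFRA and WT, where 34.3% of all genes showed no overlap, for 4 of 10 between DH-LMP2A and WT (36.6% of all) and for 1 of 10 between kFRA and DH-LMP2A (25.6% of all). The median log2 difference of the 10 genes was -0.56, -0.25 and -0.22 in the same order, beside -0.04, -0.01 and 0.00 over all genes tested. Against WT, 8 of 10 genes in kFRA and 7 of 10 in DH-LMP2A had a value below 0, most of them without passing the test, with Prdx4 and Gpx4 above 0 in both; scaled by library size alone, the count below 0 in DH-LMP2A was 4 of 10.

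Per kilobase of exon, Prdx4 had the highest mean of the 10 genes in each genotype, at 153 CPM per kilobase in DH-LMP2A, 130.6 in kFRA and 88.4 in WT. Prdx1 stood at 70.7, 73.3 and 85.2 and Gpx4 at 48.4, 85.4 and 43.6, so that in kFRA Gpx4 had the higher mean of this pair, with overlapping ranges. In WT the ranges of Prdx4 and Prdx1 overlapped, whereas in DH-LMP2A and kFRA Prdx4 lay above Prdx1 in all libraries. The lower end, from Gclc to Gclm, Srxn1 and Nqo1, had the same order in all genotypes, though the ranges of Gclc and Gclm overlapped in kFRA and those of Srxn1 and Nqo1 in DH-LMP2A. Gsr and Txnrd1 changed places: Gsr had the higher mean in WT (26.0 against 23.0, with overlapping ranges) and Txnrd1 in DH-LMP2A (17.4 against 12.3, overlapping) and in kFRA (14.9 against 8.79).

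Ratios of paired genes within a library do not depend on how libraries are scaled, and 3 were taken after the levels had been seen. Prdx4 over Prdx1, the ER over the cytosolic peroxiredoxin, was 0.710, 1.04 and 1.38 in WT, 2.08, 1.64 and 3.10 in DH-LMP2A and 1.86, 1.65 and 1.84 in kFRA. Txnrd1 over Gsr was 0.913, 0.715 and 1.09 in WT, 1.49, 1.19 and 1.94 in DH-LMP2A and 1.66, 2.17 and 1.25 in kFRA. Both ratios were higher in every DH-LMP2A and kFRA library than in every WT library, and DH-LMP2A and kFRA overlapped. An exact 2-sided permutation test gave p = 0.1 for each of these 4 differences from WT, the smallest that 3 against 3 libraries allow, and 0.225 after Benjamini-Hochberg adjustment over the 9 ratio tests. Gclc over Gclm, the subunits of 1 enzyme, was 1.98, 1.67 and 1.40 in WT, 1.56, 1.73 and 2.63 in DH-LMP2A and 2.49, 1.82 and 1.62 in kFRA, with all genotypes overlapping (exact permutation p from 0.5 to 1).

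**Figure D4:**
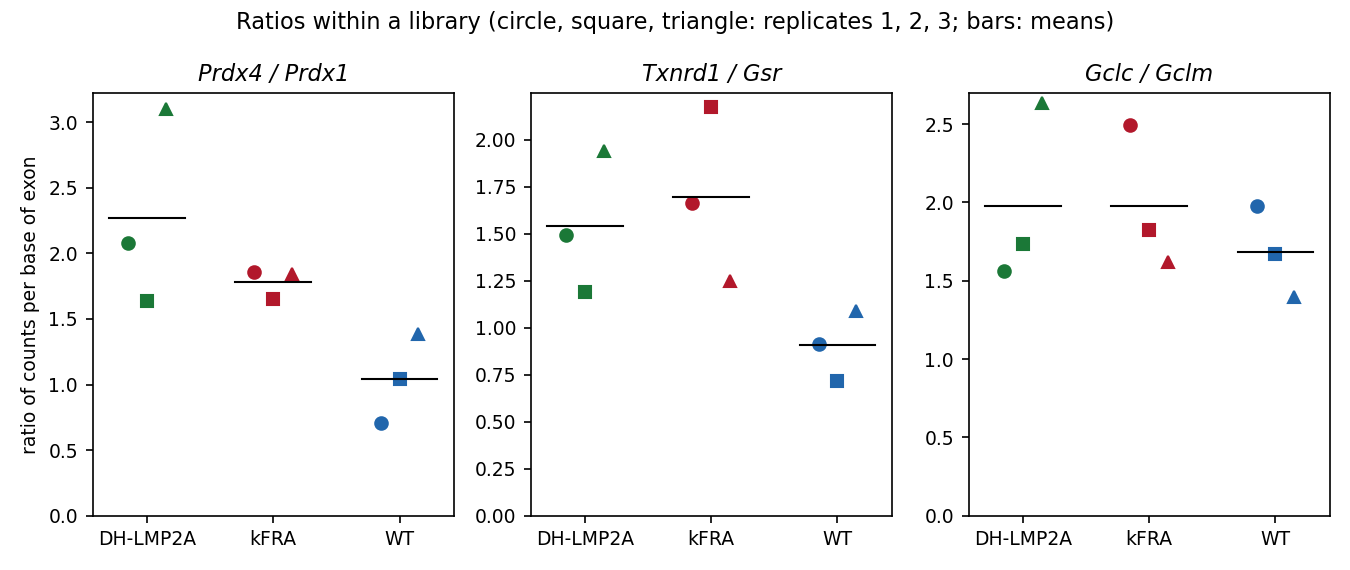
Ratios of counts per base of exon within each library (y axes from 0) for Prdx4 over Prdx1, Txnrd1 over Gsr and Gclc over Gclm, by genotype (x axes). Points are replicates and bars means of 3. In the left and middle plots the WT libraries lie below all others, up to 1.38 and 1.09.

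The other genes of the pathway were taken from 4 lists. Over all genes tested, 6.68% rose and 11.1% fell in kFRA against WT, 5.07% rose and 7.3% fell in DH-LMP2A against WT, and 1.73% rose and 3.3% fell in kFRA against DH-LMP2A. Of 10 NRF2 regulators none rose, and Bach2 fell in both genotypes against WT, by 3.12 in kFRA (edgeR adjusted p = 0.00519) and 1.83 in DH-LMP2A (edgeR adjusted p = 0.0449). Bach2, a repressor at the same DNA elements, is also a B cell gene, and 5.40% of its exon bases overlap Bach2os. Of the 8 B cell markers, 5 were called lower in kFRA against WT, while in DH-LMP2A against WT Cd22 (-2.78) and Ciita (-1.90) were called lower and Ms4a1 (1.19) and Cr2 (1.13) higher. The summed CPM of the list was 333 to 658 in WT, 232 to 291 in kFRA and 415 to 590 in DH-LMP2A; their part in the fall of Bach2 was not tested. Maff, a small MAF partner of NRF2, fell by 1.39 in DH-LMP2A against WT (edgeR adjusted p = 0.0441). Its level was low, with a mean of 0.840 CPM in DH-LMP2A, and the call held in 7 of 12 settings other than leaving out 1 library. Keap1, the inhibitor of NRF2, had mean levels of 62.0 (kFRA), 54.5 (DH-LMP2A) and 56.4 CPM (WT), named here after its values were seen, and passed no test (edgeR adjusted p = 0.367 for kFRA against DH-LMP2A, 0.422 for kFRA against WT and 0.848 for DH-LMP2A against WT).

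Of 17 other NRF2 targets none rose in any comparison. Slc7a11, the cystine transporter that feeds glutathione synthesis, was the single gene of the 4 lists called between kFRA and DH-LMP2A, where 5.02% of all genes were. It stood at 7.70, 7.14 and 4.12 CPM in DH-LMP2A, 10.03, 6.53 and 4.46 in WT and 1.37, 1.76 and 1.94 in kFRA. All kFRA libraries, replicate 2 included, lay below all others. Slc7a11 fell by 1.90 in kFRA against DH-LMP2A (SE 0.359, edgeR adjusted p = 0.0167) and by 2.05 against WT (SE 0.361, edgeR adjusted p = 0.00539). The call against WT held when each library was left out in turn, and that against DH-LMP2A held without kFRA replicate 2 or DH-LMP2A replicate 3 and in none of the other 4 such fits. In the 13 settings other than leaving out 1 library, each of these calls held in 12. Across all fits the values ran from -2.28 to -1.08 against WT and from -2.10 to -1.67 against DH-LMP2A. Granulocyte and B cell markers also moved there: S100a8 (-4.10, edgeR adjusted p = 0.0378), Cr2 (-2.45, edgeR adjusted p = 0.00126) and Ms4a1 (-1.40, edgeR adjusted p = 0.0169) fell in kFRA against DH-LMP2A, and the median of the 6 granulocyte markers was -3.34. With the covariate of all markers of other spleen cells Slc7a11 was at -1.94 against DH-LMP2A (edgeR adjusted p = 0.424) and at -2.07 against WT (edgeR adjusted p = 0.0401). The part of granulocyte or B cell markers alone was not tested. Against WT, Ephx1, an epoxide hydrolase, fell by 1.13 in kFRA (edgeR adjusted p = 0.0311, with 3.69% of exon bases shared with Gm36961), and Abcc1, an exporter of glutathione conjugates, fell by 0.46 (edgeR adjusted p = 0.0479). In DH-LMP2A against WT, Osgin1 fell by 1.11 (edgeR adjusted p = 0.0127) and Blvrb, biliverdin reductase B, fell by 0.78 (edgeR adjusted p = 0.0254). Macrophage markers, summed at 3695 to 6261 CPM in WT, were at 1244 to 3768 in DH-LMP2A, and with their covariate Osgin1 was at -0.78 (edgeR adjusted p = 0.0728) and Blvrb at -0.45 (edgeR adjusted p = 0.10). With the erythroid covariate they were at -0.55 (edgeR adjusted p = 0.721) and -0.41 (edgeR adjusted p = 0.799). Over the 13 settings other than leaving out 1 library, the call held in 10 for Osgin1, 9 for Blvrb, 10 for Ephx1 and 2 for Abcc1. Called genes thus made up 3 of 17 in kFRA and 2 of 17 in DH-LMP2A against WT, beside 17.8% and 12.4% of all genes, and the list's median was -0.35 and -0.45 there and 0.20 between kFRA and DH-LMP2A.

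Of 23 other genes of peroxide and thiol defence 22 could be tested, Gpx8 being left out by the filter on low counts. Against WT, 3 rose and 1 fell in kFRA, and 2 rose and 1 fell in DH-LMP2A, while none passed between kFRA and DH-LMP2A. Gpx7, a peroxidase of the ER like PRDX4, stood at 0.709, 1.07 and 1.02 CPM in WT, 8.38, 6.12 and 7.32 in DH-LMP2A and 3.76, 3.19 and 4.96 in kFRA. The 3 genotypes did not overlap. Gpx7 rose by 2.96 in DH-LMP2A (SE 0.274, edgeR adjusted p = 0.000158) and by 2.08 in kFRA (SE 0.273, edgeR adjusted p = 0.00106) against WT, and the difference of kFRA from DH-LMP2A was -0.88 (SE 0.245, edgeR adjusted p = 0.0782). Gpx3, the secreted glutathione peroxidase, stood at 33.7, 26.2 and 38.3 CPM in WT, and between 4.58 and 7.11 in the 6 other libraries. It fell by 2.42 in DH-LMP2A (edgeR adjusted p = 0.000162) and by 2.64 in kFRA (edgeR adjusted p = 6.68e-05). Prdx6 rose by 0.78 in kFRA (edgeR adjusted p = 0.0352). Txnip, which binds thioredoxin, rose by 0.99 in kFRA (edgeR adjusted p = 0.0194) and 1.04 in DH-LMP2A (edgeR adjusted p = 0.0193), and 19.4% of its exon bases overlap another gene. In the settings other than leaving out 1 library, the Txnip call held in 11 of 13 in kFRA and 10 of 13 in DH-LMP2A. That of Prdx6 held in 8 of 13, and those of Gpx7 and Gpx3 in 12 of 12 and 13 of 13 in both genotypes. Across all fits the lowest values were 0.76 and 0.65 for Txnip and 0.58 for Prdx6. Without kFRA replicate 2, 9 genes of this list rose and 2 fell in kFRA against WT, and 6 rose and 1 fell against DH-LMP2A (Prdx2, Prdx5, Prdx6, Sod2, Txn2 and Glrx2 upward, Cat downward), in fits that called 38.8% and 22.7% of all genes.

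Of 8 genes of disulfide formation in the ER, the same 5 rose in both genotypes against WT (Ero1lb, Pdia3, Pdia4, Pdia6 and Qsox1), none fell, and none passed between kFRA and DH-LMP2A. Ero1lb, an oxidase that makes peroxide as it forms disulfides, rose by 1.04 in kFRA (edgeR adjusted p = 0.00336) and by 1.09 in DH-LMP2A (edgeR adjusted p = 0.00315). Pdia4, a protein disulfide isomerase, rose by 1.16 in kFRA (edgeR adjusted p = 0.0122) and by 1.74 in DH-LMP2A (edgeR adjusted p = 0.00227). For Pdia6 these values were 1.08 (edgeR adjusted p = 0.00743) and 1.63 (edgeR adjusted p = 0.00119), and Qsox1 rose by 1.14 in DH-LMP2A (edgeR adjusted p = 0.00244). Over the 13 settings other than leaving out 1 library, the kFRA call held in 12 for Ero1lb and in 11 each for Pdia4 and Pdia6. The DH-LMP2A calls of Pdia4, Pdia6 and Qsox1 held in 12 each. Across all fits the lowest values were 0.89, 0.95 and 0.85 in kFRA and 1.45, 1.32 and 0.75 in DH-LMP2A, in the same orders. The medians of the list were 0.65 for kFRA and 0.88 for DH-LMP2A against WT, beside -0.04 and -0.01 over all genes. These genes are also highly expressed in plasma cells, whose summed markers, mostly Jchain, were higher in DH-LMP2A than in WT. Single markers went both ways, with Tnfrsf17 called lower than WT in both genotypes. The part of that sum was not tested.

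Not all of these calls held in the 6 fits that leave out 1 library of the genotypes compared. In kFRA against WT, the calls of Bach2, Slc7a11, Gpx7, Gpx3, Ero1lb and Pdia6 held in 6 of 6, that of Pdia4 in 5 (lost without WT replicate 2), that of Txnip in 4 (lost without kFRA replicate 1 and WT replicate 2), those of Ephx1 and Abcc1 in 2 (kept without kFRA replicate 2 and WT replicate 3) and that of Prdx6 in 1. In DH-LMP2A against WT, the calls of Gpx7, Gpx3, Pdia4, Pdia6 and Qsox1 held in 6 of 6, that of Txnip in 5 (lost without WT replicate 2), that of Osgin1 in 4 (lost without DH-LMP2A replicate 1 and WT replicate 2), those of Bach2 and Blvrb in 2 and that of Maff in 1.

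**Figure D5:**
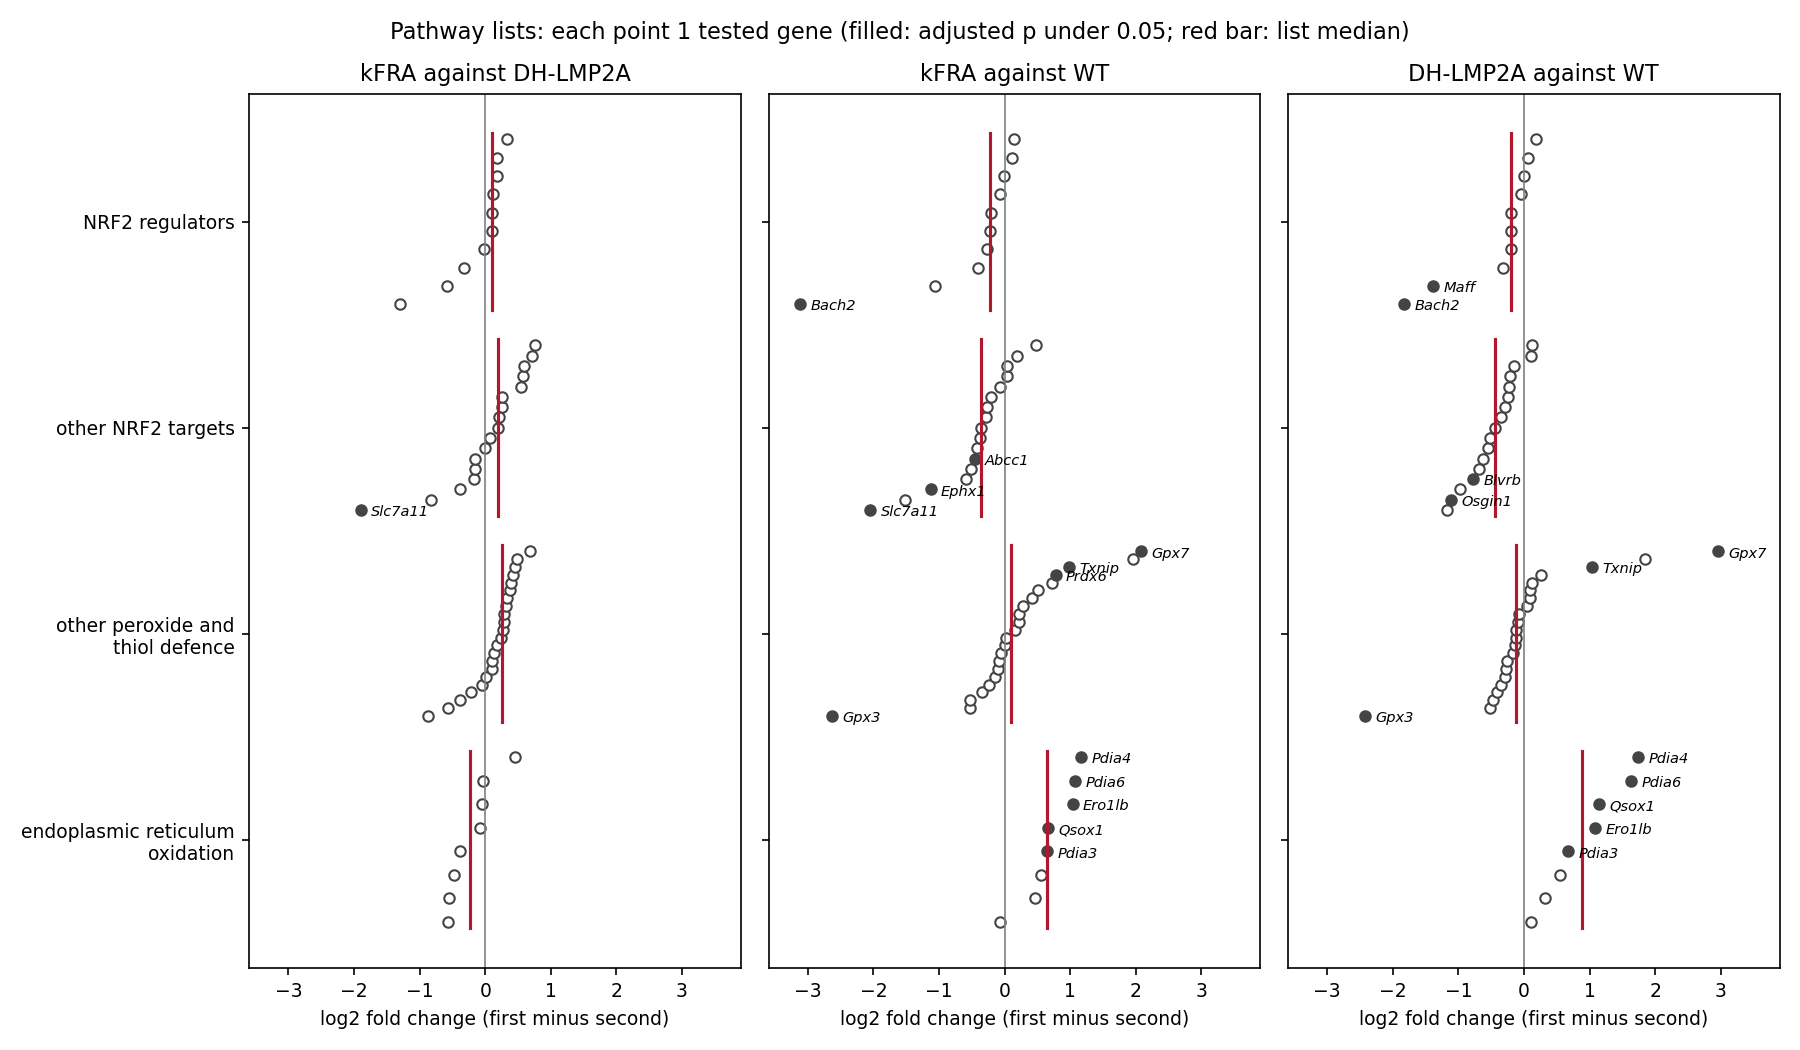
Log2 fold change (x axes) of each tested gene of the 4 pathway lists (y axis) in the 3 comparisons, with the list's median as a red bar. Filled and named points passed an adjusted p of 0.05 in edgeR. In the bottom row 5 of 8 ER oxidation genes passed to the right against WT, and in the left plot only Slc7a11 passed.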

How the data were processed

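Libraries were made with a stranded mRNA kit and sequenced as 75-base read pairs, per the labels' protocols. Raw counts per gene were deposited by the authors in 1 table without normalization, per the file headers. STAR 2.4.0a, featureCounts of Subread 1.5.0-p3 and DESeq2 with the builds mm10 and GRCm38 are named, per the submitters' processing notes; the strand setting and the handling of multi-mapping reads are not given in the sources used here. Coordinates are those of the table.

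Counts of all 9 libraries (15449026 to 21558128 per library, so that 3 counts equal 0.139 to 0.194 CPM) were filtered by filterByExpr, scaled by TMM and fitted in edgeR 4.0.16 under R 4.3.3 with 1 coefficient per genotype. Each pair of genotypes was compared with the quasi-likelihood F test (2-sided), adjusted by Benjamini-Hochberg over 14199 genes, with 0.05 as threshold. The SE is the fold change divided by the square root of F. Floors cover counting error only. Replicates are separate mice, and no pair agreed within sampling noise (chi-square per degree of freedom 17.3 to 164). Copies of the genes (at least 95% identity over 150 bases) were sought with BLAST+ 2.17.0 in GENCODE M21 transcripts.

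The members, the lists and the tests were chosen with earlier results of these data known. The text names all 10 genes and, of each list, up to 3 genes per direction and comparison with the smallest p among those passing. The alternatives comprised scaling by library size alone or by DESeq2's size factors, all genes unfiltered, a mean of at least 5 CPM, no immunoglobulin genes, a replicate block, covariates of Xist and of mean log2 CPM of markers (macrophage, erythroid, other spleen cells), only the 6 libraries compared, DESeq2 1.42.0, an adjusted p under 0.01, a fold of at least 2, and leaving out each library.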

Additional observations from a re-analysis of the deposited data

How the results depend on the processing

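Single values were tallied under the alternatives other than the stricter adjusted p and the fold of at least 2. The fit without both kFRA replicate 2 and DH-LMP2A replicate 3 was included. Of the values of the 10 genes, 487 kept their direction and side of the threshold, 22 came to pass, 25 no longer passed and 30 changed sign. No call of the 10 genes changed sign, and the causes were not tested. Among the pathway genes named, 329 values stayed on their side and 86 no longer passed. The comparisons below are kFRA against DH-LMP2A, kFRA against WT and DH-LMP2A against WT, in this order. Genes called among the 10 were 0, 2 and 1, with all genes at 713, 2523 and 1756. At an adjusted p under 0.01 they were 0, 0 and 0 (306, 975 and 765 of all), and with a fold of at least 2 the counts against WT were 1 and 0 (1588 of all in kFRA). No filter on low counts gave 2 in DH-LMP2A against WT, and a mean of at least 5 CPM 1094 of all there. The covariate of other spleen cells gave 0, 0 and 0 (164, 780 and 1026 of all), that of erythroid markers 0, 0 and 0 (452, 741 and 252), that of macrophage markers 1, 1 and 0 (1097 of all in DH-LMP2A against WT), and that of Xist 0, 1 and 0. Only the 6 libraries compared gave 0, 1 and 0. DESeq2's Wald test gave 1, 3 and 2 (1405 of all in kFRA against DH-LMP2A). Without kFRA replicate 2 and DH-LMP2A replicate 3 together, chosen after seeing the data, the counts were 4, 5 and 1 (2815, 5885 and 1889 of all). Leaving out each library gave 0 to 1, 0 to 5 and 0 to 2 among the 10, and 352 to 3299, 1271 to 5632 and 932 to 1408 of all; the highest values of kFRA came without kFRA replicate 2.

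Same-numbered libraries are different mice. Their deviations correlated at -0.21 to 0.20, and those of libraries with unlike numbers at -0.27 to 0.29. These correlations show no pairing by number, and deviations from means of 3 libraries cannot settle whether there is one. With the replicate block 0, 2 and 2 of the 10 passed (Gsr in DH-LMP2A against WT at -1.16, edgeR adjusted p = 0.0317, among them), and 685, 2930 and 2067 of all.

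Values that changed sign, as log2 fold changes: between kFRA and DH-LMP2A, with library size alone, Srxn1 -0.0998 and Prdx1 -0.0914; with the other-cell covariate Srxn1 -0.33, Prdx1 -0.11 and Gclm 0.0128; with the erythroid covariate Srxn1 -0.14 and Prdx1 -0.0358; with the macrophage covariate Srxn1 -0.0358 and Prdx1 -0.0068. Without DH-LMP2A replicate 3, Srxn1 was -0.24 and Prdx1 -0.0806, without kFRA replicate 1 Srxn1 was -0.0091, without DH-LMP2A replicate 2 Nfe2l2 was 0.0295 and without kFRA replicate 2 it was 0.0575. Over the fits that leave out libraries these 3 ran from -0.16 to 0.0575 (Nfe2l2), -0.25 to 0.66 (Srxn1) and -0.0806 to 0.21 (Prdx1). Without both libraries Nfe2l2 was 0.048, Srxn1 -0.25 and Prdx1 -0.0747. Between kFRA and WT the erythroid covariate gave Srxn1 0.0503 and Prdx1 0.12. Between DH-LMP2A and WT library size alone gave Nfe2l2 0.10, Prdx1 0.0827 and Gclc 0.0865, the erythroid covariate Srxn1 0.19, Prdx1 0.15 and Gclc 0.0652, and the macrophage covariate Gclm 0.13, Gpx4 -0.21, Txnrd1 0.0557 and Gclc 0.13. Without DH-LMP2A replicate 2, Nqo1 was -0.12, and in the other such fits up to 0.39. At 2 to 21 counts per library, depth limits what can be said of Nqo1.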
